A study of Sus scrofa with 24 samples.

Results

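The RNA-binding proteins of the ZFP36 family (ZFP36, ZFP36L1 and ZFP36L2), the ribonucleases ZC3H12A and ZC3H12C, and 3 further proteins that bind the same class of unstable messages (ELAVL1, HNRNPD and KHSRP) were followed in pig bronchial epithelium exposed to flagellin with or without an inhibitor of p38 kinase. These 8 genes were chosen by name from 25880 pig genes in the deposited counts, of which 14857 had a symbol, and 8 of the 8 passed the filter on low counts that left 14172 genes for testing. The cells came from the bronchi of wild-type pigs aged 1 month and grew on collagen-coated membranes at an air-liquid interface, with the upper surface in air. The groups, with 4 libraries each, were SB203580 plus flagellin at 24 h, flagellin at 24 h, PBS at 24 h, SB203580 plus flagellin at 2 h, flagellin at 2 h and PBS at 2 h. SB203580, which blocks p38 MAP kinase, was given at 20 µM for 1 h before flagellin, and the flagellin and PBS groups received its solvent DMSO for that hour. Flagellin, the protein of the bacterial flagellum that the receptor TLR5 recognises, was given at 100 ng/ml. SB203580 was given here together with flagellin, so its effect without flagellin was not measured.

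Inflammatory messages such as those of cytokines are often short-lived because their 3′ ends carry AU-rich elements or stem-loops that recruit decay proteins. ZFP36 (tristetraprolin) and its relatives bind AU-rich elements through paired CCCH zinc fingers and bring in the CCR4-NOT deadenylase, after which decapping enzymes and the exosome degrade the message. In human and mouse cells p38 acts through the kinase MK2, which phosphorylates ZFP36 and slows this decay, and p38 signalling also raises transcription of ZFP36 itself. ZC3H12A (Regnase-1, MCPIP1) is an endonuclease that cuts stem-loops in inflammatory messages and is itself induced by NF-kB signalling. ZC3H12C is a close relative of it. ELAVL1 (HuR) stabilises many AU-rich messages, HNRNPD (AUF1) can destabilise or stabilise them, and KHSRP promotes their decay. Only RNA was measured, so the amount, phosphorylation and activity of these proteins were not.

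In the coordinates of the deposited table, whose pig assembly is not given in the sources used here, ZFP36 (ENSSSCG00000028056) lies on the plus strand of chromosome 6 at 48052137 to 48066259. ZFP36L1 (ENSSSCG00000028304) is on the minus strand of chromosome 7 at 92488010 to 92495427, and ZFP36L2 (ENSSSCG00000038549) on the plus strand of chromosome 3 at 97200342 to 97207305. ZC3H12A (ENSSSCG00000037815) is on the plus strand of chromosome 6 at 93541334 to 93551193, and ZC3H12C (ENSSSCG00000015014) on the plus strand of chromosome 9 at 38133467 to 38207027. ELAVL1 (ENSSSCG00000013592) lies at 71206876 to 71248906 and KHSRP (ENSSSCG00000013538) at 72656951 to 72668963, both on the plus strand of chromosome 2. HNRNPD (ENSSSCG00000009249) is on the plus strand of chromosome 8 at 135844139 to 135862626. The counts cover merged exons. The exons of ZFP36 share 279 of 2847 bases with PAF1 on the other strand, and those of ELAVL1 share 75 of 5154 bases with CCL25. The use of strand in counting is not given, so reads from these shared bases cannot be assigned to a gene. The other 6 genes share no exon base with another gene of the table.

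Libraries held 26345945 to 36267289 counts of pig genes, and the members had between 597 (the lowest count of ZC3H12C) and 24327 counts (the highest of ZFP36L1) in a library. Libraries numbered 3 and 4 differed as a set from those numbered 1 and 2 in each group. Levels are given in CPM, a gene's count scaled to a common library size. Squamous markers summed to 1631 to 2281 CPM in replicates 3 and 4 and to 1936 to 10874 CPM in replicates 1 and 2. Secretory markers summed to 56.1 to 274 CPM in replicates 3 and 4 and 148 to 990 CPM in replicates 1 and 2, and ciliated markers to 162 to 284 and 211 to 380 CPM. Of 8 markers of airway epithelium, 6 matched a gene, and their sum lay between 2838 and 4170 CPM in every library. Leukocyte markers summed to a median of 41.8 CPM in replicates 3 and 4 and 108 CPM in replicates 1 and 2. Most of this sum came from LCP1, CD14 and CD68, with medians over all libraries of 18.7, 17.4 and 13.4 CPM. Their highest values were 92.2, 119 and 28.4 CPM in the same order. CD3E was at 0 in every library and PTPRC at no more than 0.113 CPM. The highest value among CSF1R, ITGAM and MS4A1 was 2.71 CPM, for CSF1R. Among replicates 1 and 2, 5 libraries were low in secretory and ciliated markers and high in squamous ones. Their secretory sum was 148 to 450.4 CPM, against 534 to 990 CPM in the other 7. The mean log2 CPM of their ciliated markers was 1.01 to 1.90, against 2.49 to 3.41, although the sum, which follows the most abundant markers, was not low in each of them. That of their squamous markers was 8.63 to 10.25, against 7.53 to 8.48. At 24 h they were both of those given SB203580 with flagellin and replicate 2 given flagellin alone, and at 2 h replicate 1 given SB203580 with flagellin and replicate 2 given PBS. The part that these differences in cell makeup have in the results was not tested, and in bulk RNA fewer cells of a type cannot be told apart from less RNA per cell. The labels do not say whether replicates came from separate animals or cultures, so the p-values reflect the spread among libraries, which may be technical. Libraries with the same replicate number deviated together across groups, but they also share a set, so this cannot tell pairing by number from the sets. The value from a fit with the replicate number as a block is given beside the fit without it where it changes a call. Calls made only with the block thus rest on a pairing that was not established.

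Per kilobase of exon, ZFP36L1 and ZFP36 were the most abundant members and ZC3H12C the least. The median over the 24 libraries was 99.1 CPM per kilobase for ZFP36L1, 73.1 for ZFP36, 46.6 for HNRNPD, 33.7 for ZC3H12A, 32.5 for ZFP36L2, 24.3 for KHSRP, 19.3 for ELAVL1 and 4.97 for ZC3H12C. Ranges overlapped between neighbours in this order, except that no library of ELAVL1 (18.2 to 24.2) came down to the highest of ZC3H12C (12.7). The members differed in how far they moved between libraries. ZC3H12A spanned a 9.98-fold range, ZFP36 a 6.17-fold range and ZC3H12C a 4.52-fold range, whereas ELAVL1, HNRNPD and KHSRP spanned 1.33-fold, 1.38-fold and 1.36-fold ranges. ZFP36L1 (2.71-fold) and ZFP36L2 (2.45-fold) lay between these groups.

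**Figure D1:**
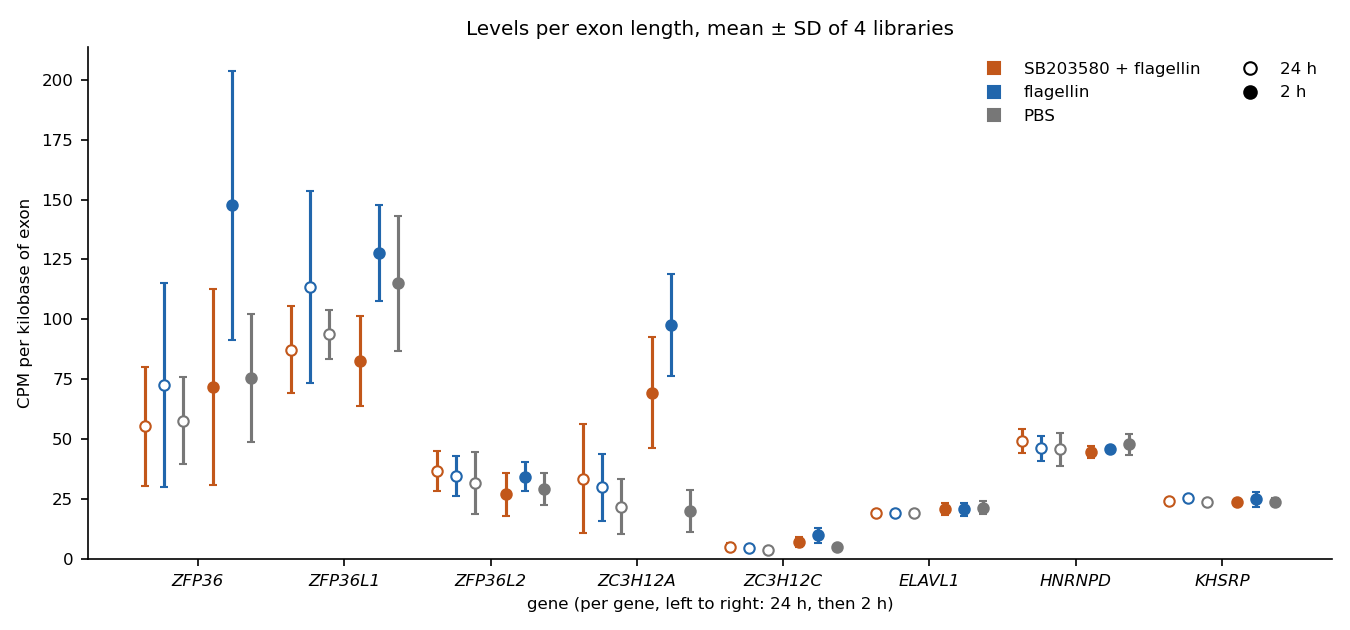
Level of each member in CPM per kilobase of exon on a linear axis, as the mean and SD of 4 libraries in each of the 6 groups. ZFP36L1 and ZFP36 sit at the top and ZC3H12C at the bottom in every group. ZC3H12A spans the widest range as a fold, with its highest mean (97.6) in flagellin at 2 h.

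The 3 ZFP36 family messages together were more abundant in flagellin at 2 h than in the other groups at that time. Their summed level per kilobase was 219.6, 161, 166 and 179 CPM in replicates 1 to 4 of SB203580 plus flagellin at 2 h, 309, 354, 311 and 264 CPM in flagellin at 2 h, and 218, 214, 222 and 225 CPM in PBS at 2 h. All 4 flagellin libraries lay above all 8 libraries of the other groups at this time. At 24 h the sum was 142 to 244 CPM in SB203580 plus flagellin, 161 to 333 CPM in flagellin and 169 to 203 CPM in PBS, and the 333 CPM, in replicate 2 of flagellin, exceeded 3 of the 4 flagellin libraries at 2 h. ZFP36 made up a mean of 38.6% (SD 17.5) of that sum in SB203580 plus flagellin at 2 h, 46.6% (SD 13.3) in flagellin and 34.5% (SD 12.6) in PBS. The libraries overlapped between these groups. In replicate 1 the share was 57.9% with the inhibitor and 55.0% in flagellin alone. In each group at 2 h it was lower in replicates 3 and 4 than in replicates 1 and 2. ZFP36L1 made up 46.3% in SB203580 plus flagellin, 42.0% in flagellin and 52.2% in PBS at 2 h, and ZFP36L2 15.1%, 11.4% and 13.3% in the same order. At 24 h the share of ZFP36 was 29.9% in SB203580 plus flagellin, 31.0% in flagellin and 31.0% in PBS.

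**Figure D2:**
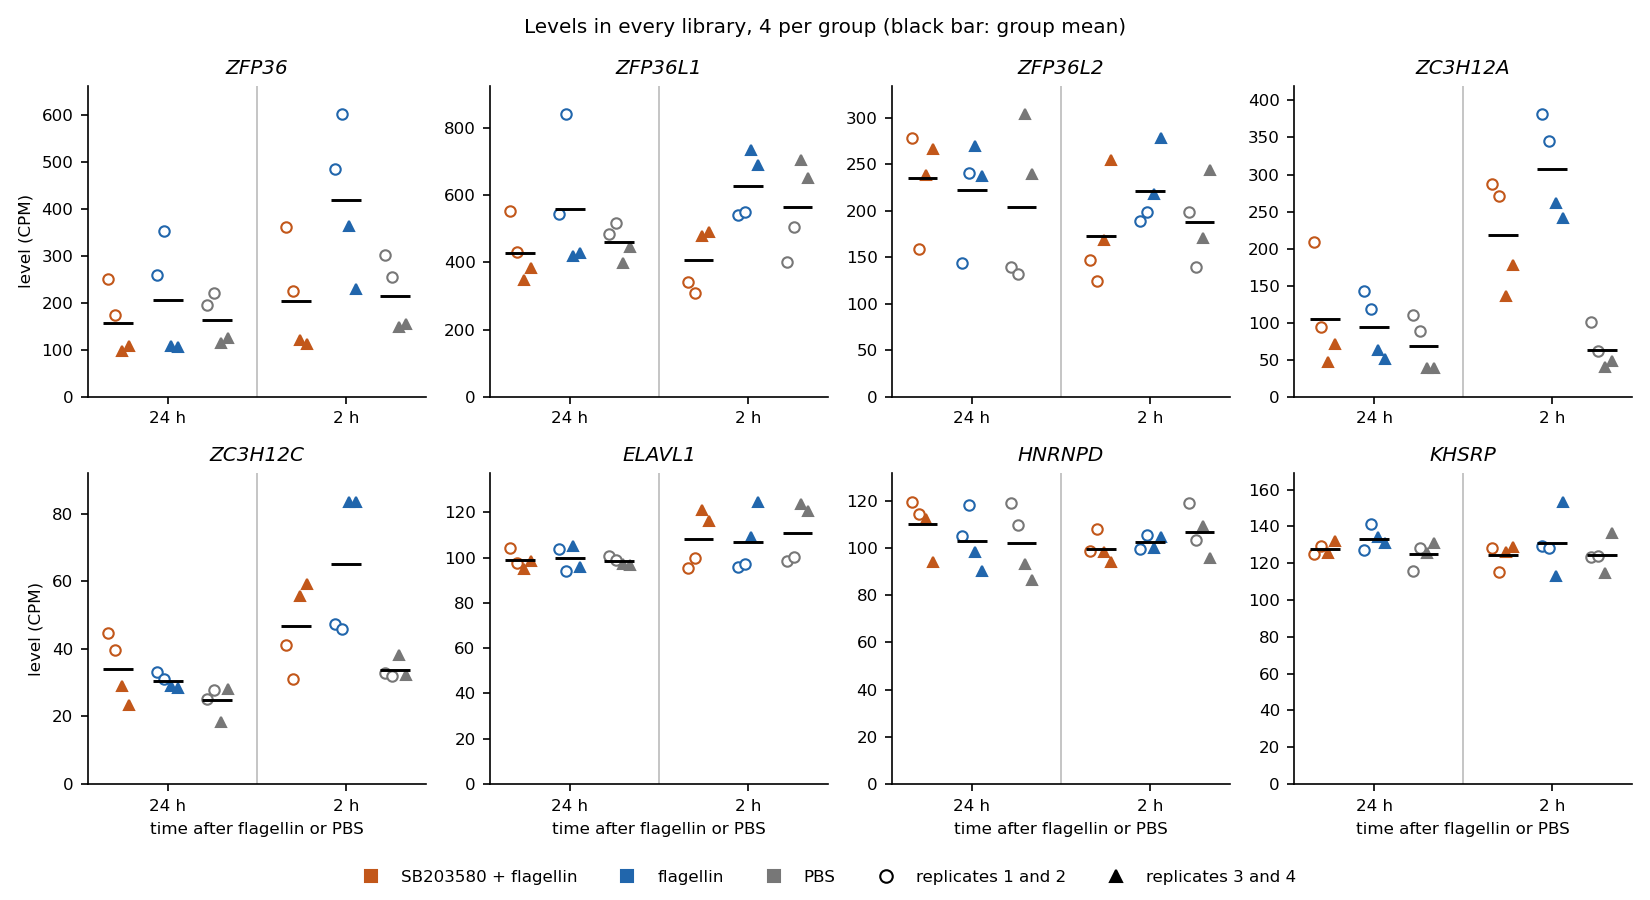
CPM of the 8 members in every library, with 24 h to the left of 2 h and, within each time, SB203580 plus flagellin, flagellin and PBS from left to right; circles are replicates 1 and 2, triangles replicates 3 and 4, and the bar is the mean of 4. ZC3H12A in flagellin at 2 h (241 to 381 CPM) lies above all PBS libraries, and ELAVL1, HNRNPD and KHSRP stay within narrow bands.

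Flagellin against PBS at 2 h addressed which decay factors respond early. ZC3H12A, the RNase that limits inflammatory messages, rose, with no overlap between the groups. ZFP36 rose in the fit that takes the replicate number into account, and ZC3H12C was higher in every flagellin library than in any PBS library without passing this test. Of the 8 members, 1 was called (ZC3H12A, higher), where 0.325% of all genes tested were called, and 2 were called with the block (ZC3H12A and ZFP36), where 1.07% of all genes were. A call is an adjusted p under 0.05.

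ZC3H12A was at 381, 345, 261 and 241 CPM in replicates 1 to 4 of flagellin at 2 h, and at 101, 62.0, 40.8 and 48.3 CPM in PBS at 2 h. The groups did not overlap, and the lowest flagellin library stood well above the highest PBS library. The means were 307 ± 67.0 CPM in flagellin and 63.1 ± 26.9 CPM in PBS (SD, n = 4 each). Its log2 fold change was 2.28 (SE 0.466, adjusted p = 0.0301), or 2.37 (SE 0.195, adjusted p = 3.92e-07) with the block. Without the block this call was lost when any of 7 of the 8 libraries was left out. The adjusted p was 0.0911, 0.0704, 0.0646 and 0.0516 without replicates 1, 2, 3 and 4 of flagellin in turn. It was 0.108, 0.183 and 0.113 without replicates 2, 3 and 4 of PBS, and 0.0306 without replicate 1 of PBS. Leaving out the 5 libraries low in secretory and ciliated markers gave 2.28 (adjusted p = 0.0581). Within the sets, ZC3H12A had a log2 fold change of 2.51 in replicates 3 and 4 alone (adjusted p = 6.09e-05) and of 2.15 in replicates 1 and 2 alone (adjusted p = 0.122).

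ZFP36 was at 484, 602, 364 and 229.7 CPM in flagellin at 2 h and at 302, 254, 148 and 155 CPM in PBS at 2 h. The groups overlapped, because replicate 4 of flagellin lay below replicates 1 and 2 of PBS, yet each flagellin library was above the PBS library of the same number. The log2 fold change was 0.97 (SE 0.446, adjusted p = 0.946) without the block and 0.97 (SE 0.188, adjusted p = 0.0111) with it. Its size was alike in the sets, at 0.98 in replicates 3 and 4 (adjusted p = 0.00991) and 0.96 in replicates 1 and 2 (adjusted p = 0.426).

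ZC3H12C was at 47.3, 45.9, 83.6 and 83.4 CPM in flagellin at 2 h and at 33.0, 32.0, 38.3 and 32.2 CPM in PBS at 2 h, with no overlap. Its log2 fold change of 0.94 (SE 0.231) had an adjusted p of 0.114, which became 0.0753 with the block and 0.0159 by DESeq2. Replicates 3 and 4 carried more of it, with 1.26 (adjusted p = 0.00176) there and 0.52 (adjusted p = 0.359) in replicates 1 and 2. The difference between the sets was not called for any member, where 0.00706% of all genes were.

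ZFP36L1 and ZFP36L2 and the 3 further binding proteins were not called. ZFP36L1 was at 539, 549, 733 and 689 CPM in flagellin and at 401, 506, 704 and 650.0 CPM in PBS, and ZFP36L2 at 189, 199, 218 and 278 CPM in flagellin and 198, 140.0, 170.3 and 243 CPM in PBS. Both overlapped between the groups. ELAVL1 (95.9 to 125 CPM in flagellin, 98.7 to 124 CPM in PBS), HNRNPD (99.5 to 105 and 95.6 to 119 CPM) and KHSRP (113 to 153 and 115 to 136 CPM) overlapped as well.

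**Figure D3:**
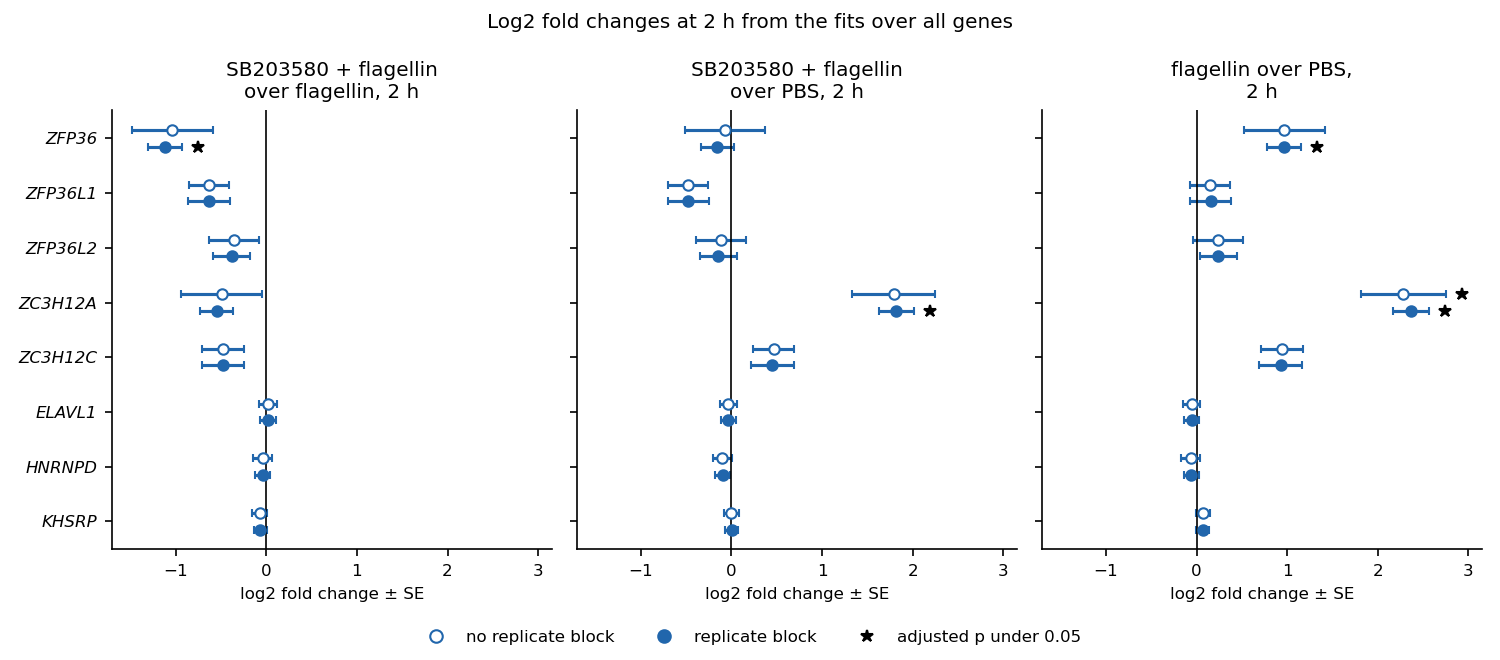
Log2 fold change with its SE for the 8 members in the 3 comparisons at 2 h, from the fit without a block and with the replicate block; stars mark an adjusted p under 0.05. The estimates of the fits lie close together and the block narrows the error bars of ZFP36 and ZC3H12A, whose flagellin effect was 2.28 without and 2.37 with it.

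SB203580 plus flagellin against flagellin at 2 h addressed how far the early response changed under SB203580. The activity of p38 itself was not measured. The ZFP36 family and both ribonucleases were lower with the inhibitor in every one of the 4 same-numbered pairs, and ZFP36 was called with the block. The share of all genes lower in 4 of 4 pairs was not counted, so this does not set the members apart. None of the 8 members was called without the block by edgeR, where 0.00706% of all genes were, and 2 had an unadjusted p under 0.05 (ZFP36 and ZFP36L1). Of 14172 genes, 321 were at that unadjusted level. DESeq2 called none of the members and gave 3 at it, where 363 genes were. With the block 1 of the 8 was called, where 0.0353% of all genes were.

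ZFP36 was at 362, 224, 121 and 112 CPM in SB203580 plus flagellin at 2 h, against 484, 602, 364 and 229.7 CPM in flagellin. Replicate 1 with the inhibitor exceeded replicate 4 of flagellin and came close to replicate 3, so the groups overlapped. The same-numbered log2 differences were -0.42, -1.42, -1.59 and -1.03. The log2 fold change was -1.04 (SE 0.447, adjusted p of 1) without the block, and -1.12 (SE 0.188, adjusted p = 0.0379) with it. Replicate 1 of SB203580 plus flagellin, which shows the smallest difference, is among the 5 libraries low in secretory and ciliated markers. The mean of 205 ± 117 CPM with SB203580 and flagellin lay beside 215 ± 75.8 CPM in PBS (SD, n = 4 each).

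ZFP36L1, which MK2 also phosphorylates in human and mouse cells, was at 342, 310.1, 479 and 491 CPM in SB203580 plus flagellin at 2 h, against 539, 549, 733 and 689 CPM in flagellin, with no overlap. Its log2 fold change was -0.63 (SE 0.223), or -0.63 (SE 0.23, adjusted p = 0.783) with the block. When the set of replicates was the term in place of the number it was -0.65 (adjusted p = 0.0186). The estimates in the sets were -0.56 in replicates 3 and 4 and -0.75 in replicates 1 and 2. ZFP36L2 was at 147, 124, 168 and 254 CPM with the inhibitor, against 189, 199, 218 and 278 CPM in flagellin (log2 fold change -0.35, SE 0.275), and the groups overlapped.

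ZC3H12A was at 288, 271, 136 and 178 CPM in SB203580 plus flagellin, against 381, 345, 261 and 241 CPM in flagellin, with a log2 fold change of -0.49 (SE 0.445), or -0.55 (SE 0.185, adjusted p = 0.667) with the block. ZC3H12C was at 41.0, 31.1, 55.7 and 59.3 CPM with the inhibitor, against 47.3, 45.9, 83.6 and 83.4 CPM in flagellin (log2 fold change -0.48, SE 0.229). Both overlapped between the groups. For no member was the inhibitor's effect called as different between the sets of replicates, where 0.0% of all genes were.

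SB203580 plus flagellin against PBS at 2 h gives what remained of the flagellin response under the inhibitor; the flagellin comparison uses the same PBS libraries, and the inhibitor comparison the same libraries with SB203580. None of the 8 members was called without the block by edgeR, where 0.183% of all genes were. An unadjusted p under 0.05 was found for 2 (ZC3H12A and ZFP36L1), and for 673 of 14172 genes. DESeq2 called 1, ZC3H12A. With the block 1 was called, where 0.804% of all genes were. ZC3H12A stayed above PBS without overlap, at 136 to 288 CPM with SB203580 and flagellin and 40.8 to 101 CPM in PBS. Its log2 fold change was 1.79 (SE 0.458, adjusted p = 0.185), and 1.82 (SE 0.191, adjusted p = 1.71e-05) with the block. It was 1.83 (adjusted p = 0.000804) in replicates 3 and 4 and 1.76 (adjusted p = 0.288) in replicates 1 and 2.

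ZFP36 had a mean close to that of PBS at 2 h under the inhibitor, as given above, and its groups overlapped. ZFP36L1 was lower with SB203580 and flagellin, at 310.1 to 491 CPM, than in PBS, at 401 to 704 CPM, with a log2 fold change of -0.48 (SE 0.223) and an adjusted p of 0.043 once the set of replicates was a term. The groups overlapped. ZC3H12C was at 31.1 to 59.3 CPM with SB203580 and flagellin and at 32.0 to 38.3 CPM in PBS (log2 fold change 0.46, SE 0.23). The sets of replicates differed in this comparison for none of the members, where 0.0141% of all genes did.

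At 24 h no member passed the test between treatments. For flagellin against PBS, none of the 8 was called without or with the block, where 0.0% of all genes were called in either fit. At an unadjusted p under 0.05 there was none by edgeR without the block or by DESeq2, and 1 with the block (ZC3H12A). The numbers among 14172 genes were 112, 152 and 390 in that order. ZC3H12A was at 143, 119, 63.2 and 50.9 CPM in flagellin at 24 h and at 111, 88.3, 38.2 and 38.6 CPM in PBS at 24 h, higher in flagellin in 4 of 4 pairs but overlapping. ZC3H12C was at 33.1, 31.2, 29.0 and 28.4 CPM in flagellin and at 25.1, 27.97, 18.5 and 28.2 CPM in PBS, which did not overlap although the gap was small (0.29, SE 0.23). ZFP36L1 was at 545, 841, 419 and 429 CPM in flagellin and at 484, 516, 399 and 447 CPM in PBS (0.28, SE 0.223), and KHSRP at 127 to 141 CPM in flagellin and 116 to 131 CPM in PBS (0.09, SE 0.0811). The highest ZFP36L1 value, in replicate 2 of flagellin, came from a library low in secretory and ciliated markers.

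For SB203580 plus flagellin against flagellin at 24 h, none of the 8 was called or had an unadjusted p under 0.05, by edgeR without or with the block or by DESeq2, where 0.0% of all genes were called without and 0.0% with the block. Among 14172 genes, 405, 944 and 482 had such an unadjusted p, in that order. ZFP36 was at 251, 173, 97.4 and 109 CPM with SB203580 and flagellin and at 259.6, 354, 109 and 106 CPM in flagellin. ZFP36L1 was at 553, 430.3, 349 and 384 CPM with the inhibitor, against 545, 841, 419 and 429 CPM in flagellin (log2 fold change -0.38, SE 0.223). Both overlapped between the groups. Across the sets of replicates, no member's effect differed for flagellin against PBS (0.0% of all genes) or for the inhibitor (0.00706% of all genes) at 24 h.

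For SB203580 plus flagellin against PBS at 24 h, none was called in either fit, where 0.00706% of all genes were called without the block and 0.0635% with it. No member had an unadjusted p under 0.05 without the block, where 603 of 14172 genes did. With the block 1 did (ZC3H12A), where 1264 genes did, and none was called by DESeq2. ZC3H12A was at 209, 94.7, 47.3 and 71.4 CPM with SB203580 and flagellin at 24 h, against 111, 88.3, 38.2 and 38.6 CPM in PBS (log2 fold change 0.61, SE 0.447). Without the 5 libraries low in secretory and ciliated markers ZC3H12A gave -0.22, the other direction. That fit set replicates 3 and 4 with SB203580 and flagellin against all 4 PBS libraries, so the sets were unequal between the groups. ZC3H12A was lower in replicates 3 and 4 than in replicates 1 and 2 in 6 of 6 groups. With all libraries it was higher than PBS in 4 of 4 same-numbered pairs. ZC3H12C (0.45, SE 0.23) and HNRNPD (0.11, SE 0.104) were the other members whose difference exceeded its SE. The sets did not differ here for any member (0.0% of all genes).

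Both ribonucleases fell with time in flagellin. There, 2 of the 8 members were called as lower at 24 h than at 2 h (ZC3H12A and ZC3H12C), where 7.9% of all genes were called, and 3 with the block (ZFP36 as well), where 18.8% of all genes were. ZC3H12A was at 50.9 to 143 CPM in flagellin at 24 h and at 241 to 381 CPM in flagellin at 2 h, with no overlap. Its log2 fold change was -1.71 (SE 0.457, adjusted p = 0.0245), or -1.82 (adjusted p = 5.34e-06) with the block. Without the block the adjusted p was 0.0638 and 0.0563 without replicate 1 or 2 of flagellin at 2 h, and 0.0776 and 0.0767 without replicate 3 or 4 of flagellin at 24 h.

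ZC3H12C was at 28.4 to 33.1 CPM in flagellin at 24 h and at 45.9 to 83.6 CPM in flagellin at 2 h. The log2 fold change was -1.10 (SE 0.232, adjusted p = 0.00571), or -1.08 (adjusted p = 0.00419) with the block, and it was called whichever library was left out (adjusted p 0.00447 to 0.0281). ZFP36 was at 106 to 354 CPM in flagellin at 24 h and at 229.7 to 602 CPM at 2 h, lower at 24 h in 4 of 4 pairs, with a log2 change of -1.02 (SE 0.447, adjusted p = 0.182) without the block and -1.13 (SE 0.188, adjusted p = 0.000476) with it. Without the 5 libraries low in secretory and ciliated markers it was -1.42 (adjusted p = 0.0398). In this comparison only replicate 2 of flagellin at 24 h was left out, so replicates 3 and 4 weighed more at 24 h than at 2 h. ZFP36 was lower in replicates 3 and 4 than in replicates 1 and 2 in 6 of 6 groups. ELAVL1 was at 94.0 to 105 CPM in flagellin at 24 h and at 95.9 to 125 CPM at 2 h (-0.10, SE 0.0962), without a call. Within the sets ZFP36 gave -1.48 (adjusted p = 0.00016) in replicates 3 and 4 and -0.82 (adjusted p = 0.0788) in replicates 1 and 2, and ZC3H12A gave -2.14 (adjusted p = 6.3e-05) in replicates 3 and 4 and -1.47 (adjusted p = 0.0349) in replicates 1 and 2.

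In PBS none of the 8 members was called between 24 h and 2 h by edgeR, where 10.2% of all genes were called without and 22.5% with the block, and none had an unadjusted p under 0.05 without the block or by DESeq2. That unadjusted level was reached by 3455 of 14172 genes without the block and 3684 by DESeq2. ZC3H12C was at 18.5 to 28.2 CPM in PBS at 24 h and at 32.0 to 38.3 CPM at 2 h, which did not overlap (log2 fold change -0.44, SE 0.23). ELAVL1 was at 96.9 to 101 CPM at 24 h and at 98.7 to 124 CPM at 2 h in PBS (-0.17, SE 0.0963), and ZFP36L1 had a log2 fold change of -0.29 (SE 0.223). An unadjusted p under 0.05 was found with SB203580 and flagellin for 1 member by either tool, beside 2883 of 14172 genes by edgeR without the block and 3129 by DESeq2. In these groups none was called by edgeR without the block (0 by DESeq2), where 6.88% of all genes were, and 1 with it, where 17.1% were. That 1 was ZC3H12A, at 47.3 to 209 CPM at 24 h and 136 to 288 CPM at 2 h. Its log2 fold change was -1.05 (SE 0.449, adjusted p = 0.185), or -1.18 (SE 0.188, adjusted p = 0.00039) with the block. It was -1.62 (adjusted p = 0.0374) without replicate 1 at 24 h, a library low in secretory and ciliated markers. Leaving that library out also made the sets unequal between the times, and ZC3H12A was lower in replicates 3 and 4 in 6 of 6 groups. ZFP36L2 was higher at 24 h in 4 of 4 pairs with SB203580 and flagellin, at 159 to 278 CPM against 124 to 254 CPM at 2 h (0.44, SE 0.275), without a call. HNRNPD (0.14, SE 0.104), ELAVL1 (-0.13, SE 0.0962) and ZC3H12C (-0.45, SE 0.23) were not called either.

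**Figure D4:**
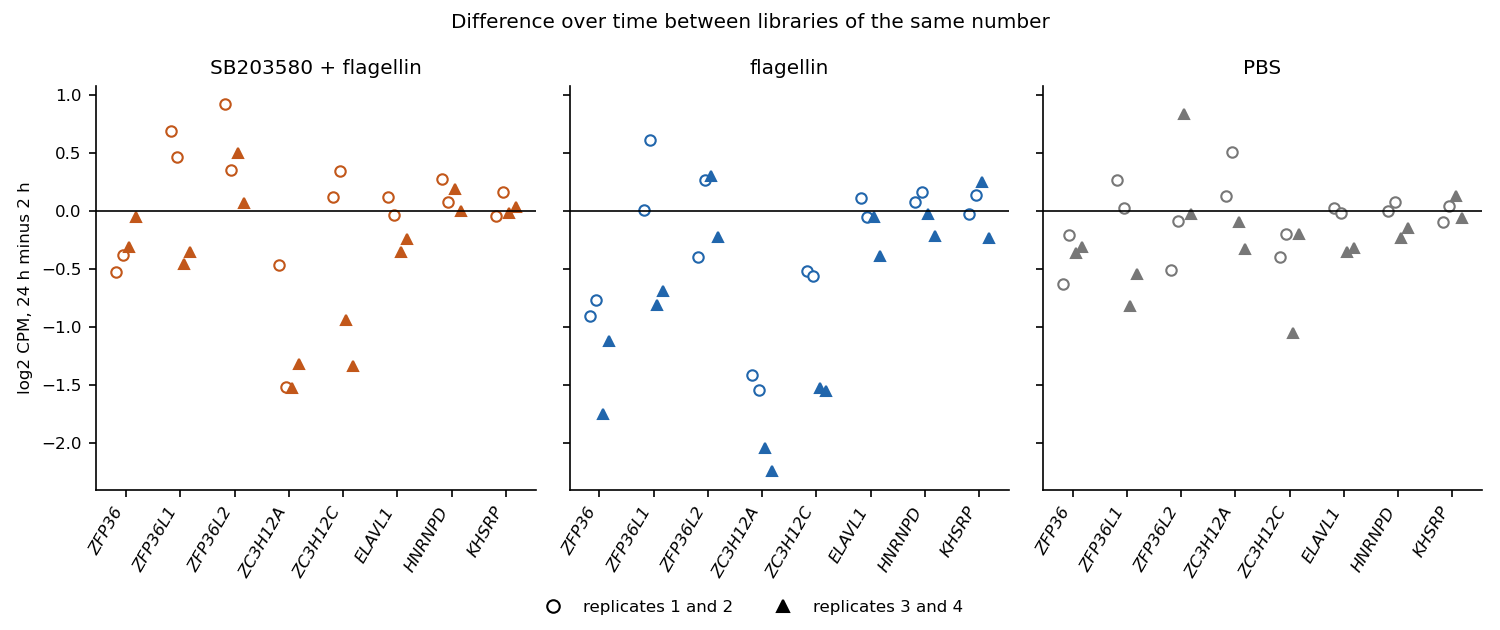
Difference in log2 CPM between 24 h and 2 h for each replicate number and member, under SB203580 plus flagellin, flagellin and PBS. For ZFP36L1 the points of replicates 3 and 4 lie below 0 and those of replicates 1 and 2 above it in all 3 treatments, and ZC3H12A in flagellin lies between -2.24 and -1.41.

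The change with time went opposite ways in the sets of replicates for ZFP36L1. In replicates 3 and 4 it was lower at 24 h than at 2 h in all 3 treatments, with log2 fold changes of -0.42 (adjusted p = 0.00947) in SB203580 plus flagellin, -0.75 (adjusted p = 0.000291) in flagellin and -0.67 (adjusted p = 0.00104) in PBS. In replicates 1 and 2 it was higher at 24 h, with 0.60, 0.35 and 0.16 in the same treatments. The same-numbered differences of replicates 1 and 2 were 0.69 and 0.47 in SB203580 plus flagellin. They were 0.015 and 0.61 in flagellin, and 0.27 and 0.028 in PBS, so some of them were close to no change. The effect in replicates 3 and 4 minus that in replicates 1 and 2 was -0.995 (SE 0.237, adjusted p = 0.0169) in SB203580 plus flagellin, where 9.84% of all genes differed. It was -1.09 (SE 0.237, adjusted p = 0.00887) in flagellin, where 11.8% did, and -0.82 (SE 0.237, adjusted p = 0.0401) in PBS, where 9.36% did. This term was chosen after the data were seen.

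ZC3H12C also differed between the sets, with -1.15 (adjusted p = 0.00102) in replicates 3 and 4 and 0.23 in replicates 1 and 2 for SB203580 plus flagellin. For flagellin it was -1.54 (adjusted p = 0.000119) in replicates 3 and 4 and -0.53 (adjusted p = 0.0377) in replicates 1 and 2. The difference between the sets was -1.36 (SE 0.235, adjusted p = 0.00346) and -1.004 (SE 0.234, adjusted p = 0.0126) in these treatments. Apart from time, ZFP36 and ZC3H12A were lower in replicates 3 and 4 than in replicates 1 and 2 in 6 of 6 groups, by a mean log2 difference of -1.06 and -1.01. ZFP36L2 was higher in replicates 3 and 4 in 6 of 6 groups (0.49), and HNRNPD slightly lower in 6 of 6 (-0.17). Secretory markers summed to a median of 79.6 CPM in replicates 3 and 4 and 596 CPM in replicates 1 and 2, and squamous markers to 1915 and 5656 CPM, and their part in these differences was not tested.

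Whether an effect itself changed between the times was tested as an interaction. For the flagellin effect, none of the 8 members was called without the block, where 0.0423% of all genes were, and 1 with it, where 0.191% were. The flagellin effect on ZC3H12A at 24 h minus that at 2 h was -1.84 (SE 0.634, adjusted p of 1) without the block and -1.89 (SE 0.265, adjusted p = 0.00113) with it. For ZFP36 it was -0.63 (SE 0.626) and for ZC3H12C -0.65 (SE 0.325) without the block, and neither was called. At an unadjusted p under 0.05 ZC3H12A was the 1 member without the block and by DESeq2, which called 0. It stood beside 235 of 14172 genes without the block and 267 by DESeq2. For the inhibitor's effect under flagellin, 0 of 8 were called by edgeR, where 0.0% of all genes were called without and 0.0% with the block. At an unadjusted p under 0.05 there were 0 without the block, 2 with it (ZFP36 and ZC3H12A) and 0 by DESeq2, which called none. The numbers among 14172 genes were 113, 366 and 138 in that order. The inhibitor's effect at 24 h minus that at 2 h was 0.64 (SE 0.626) for ZFP36, 0.43 (SE 0.389) for ZFP36L2, 0.66 (SE 0.629) for ZC3H12A and 0.64 (SE 0.324) for ZC3H12C without the block. The flagellin and inhibitor effects at each time share the flagellin libraries, so they are not independent of each other.

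Among the members, ZC3H12A and ZC3H12C varied most alike over the 24 libraries once the mean of each replicate number had been subtracted (Pearson r = 0.808 of log2 CPM). ZFP36 had r = 0.644 with ZC3H12A and 0.644 with ZC3H12C, and r = 0.574 with ZFP36L1, while ZFP36L1 and ZC3H12A had r = 0.192. Over 11856 genes with a symbol, those most like ZC3H12A were NFKBIZ (0.987), an atypical IkB protein, IRF1 (0.984), TNFAIP2 (0.965), CXCL2 (0.963) and CD83 (0.961). Among the nearest to ZFP36 were OTUD1 (0.935), CDC42EP4 (0.898), CLDN4 (0.870) and CSRNP1 (0.852). For ZFP36L1 they were PTGS2 (0.918), WDR20 (0.910), PIP5K1A (0.896), PPP1R3C (0.892) and RAB35 (0.887). Likeness was weaker for ZFP36L2, whose nearest genes were LTBP4 (0.760), LIX1L (0.748), EIF4EBP1 (0.700), RFTN1 (0.695) and ATP6V1B1 (0.686). These values are descriptions over libraries that share treatments, depth and cell makeup. Without the subtraction, 3 of the 5 nearest genes were the same for each of ZC3H12A, ZFP36 and ZFP36L1, and 0 of 5 for ZFP36L2.

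Some messages known as ZFP36 targets, mostly from human and mouse cells, rose with flagellin at 2 h. Of 25 listed, 22 were tested, and 4 were called as higher in flagellin than in PBS (10 with the block, 9 by DESeq2, 5 without the 5 libraries low in secretory and ciliated markers) and 0 as lower, where 0.325% of all genes were called without and 1.07% with the block. Their median log2 fold change was 1.34, where the median of all genes was -0.003. The target lists used here were chosen with earlier results of these data known. These counts and medians therefore cannot show whether targets respond more than other genes. The 4 were CXCL8, IRF1, BIRC3 and PLAUR. CXCL8, a chemokine for neutrophils, was at 608, 617, 755 and 638 CPM in flagellin and at 51.4, 46.1, 22.6 and 13.2 CPM in PBS, with a log2 change of 4.30 (SE 0.746, adjusted p = 0.00943). IRF1, a transcription factor of interferon and cytokine genes, was at 220.0, 199, 177 and 148 CPM in flagellin and at 24.3, 21.1, 14.5 and 13.5 CPM in PBS (3.34, SE 0.335, adjusted p = 7.21e-06). Neither overlapped between the groups. BIRC3, an inhibitor of apoptosis, rose by 1.68 (SE 0.202, adjusted p = 7.97e-05), and the receptor of urokinase, PLAUR, rose by 1.57 (SE 0.289, adjusted p = 0.0144). With the block the chemokine CXCL2 (4.70, adjusted p = 1.03e-05), the cytokine LIF (3.71, adjusted p = 5.36e-06) and the chemokine CCL2 (2.61, adjusted p = 0.00196) were also called.

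Of 15 messages listed as targets of ZC3H12A, 12 were tested, of which 1 was called as higher in flagellin at 2 h and 4 with the block (4 by DESeq2), beside the same shares of all genes, with a median of 1.04. NFKBID, an atypical IkB protein, was at 50.8, 48.8, 25.8 and 21.6 CPM in flagellin and at 6.69, 4.57, 3.68 and 5.03 CPM in PBS, with no overlap and a log2 change of 2.88 (SE 0.288, adjusted p = 7.21e-06). NFKBIZ was called with the block (2.51, adjusted p = 3.35e-06). CXCL2 is on both target lists.

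Most targets had lower levels with the inhibitor than in flagellin alone, without calls by edgeR. The flagellin libraries are those compared with PBS above, so these comparisons are not independent. The target lists were chosen with earlier results known, so the counts and medians here cannot show whether targets respond more than other genes. For SB203580 plus flagellin against flagellin at 2 h, 21 of the 22 ZFP36 targets had a log2 fold change below 0, with a median of -0.69 where that of all genes was 0.012. None was called by edgeR without or with the block, 9 had an unadjusted p under 0.05 in the direction of lower (14 with the block), and DESeq2 called 1 as lower. Of all genes, 0.00706% were called without and 0.0353% with the block. An unadjusted p under 0.05, in either direction, was found for 321 of 14172 genes without and 668 with the block. Of the 12 ZC3H12A targets 9 were below 0, with a median of -0.52, 0 calls in either fit or by DESeq2, and 3 at an unadjusted p under 0.05 (5 with the block). The targets counted here include IL6, IL10, IL12B, IL23A, CSF3 and TNFRSF4, whose group means were at most 0.853 CPM.

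Part of the target response remained above PBS. For SB203580 plus flagellin against PBS at 2 h, 3 ZFP36 targets were called as higher (5 with the block) and 0 as lower (1 with the block), where 0.183% of all genes were called without and 0.804% with the block. The median was 0.50. IRF1 was at 126, 144, 87.9 and 105 CPM with SB203580 and flagellin, above all PBS libraries (2.66, adjusted p = 0.00028). CXCL8, at 326, 395, 454 and 567 CPM with SB203580 and flagellin, also stood above every PBS library (3.71, adjusted p = 0.0323), and BIRC3 rose by 1.21 (adjusted p = 0.0087). With the block CXCL2 (3.53) and LIF (2.68) were called as higher. DUSP1, the phosphatase that switches p38 off and whose message ZFP36 binds, was at 169, 141, 166 and 173 CPM with SB203580 and flagellin, against 352, 274, 211 and 204 CPM in PBS, and was called as lower with the block (-0.66, adjusted p = 0.0439). The groups did not overlap. Of the ZC3H12A targets NFKBID was called (2.28, adjusted p = 0.00028), and NFKBIZ (1.84) and CXCL2 with the block.

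**Figure D5:**
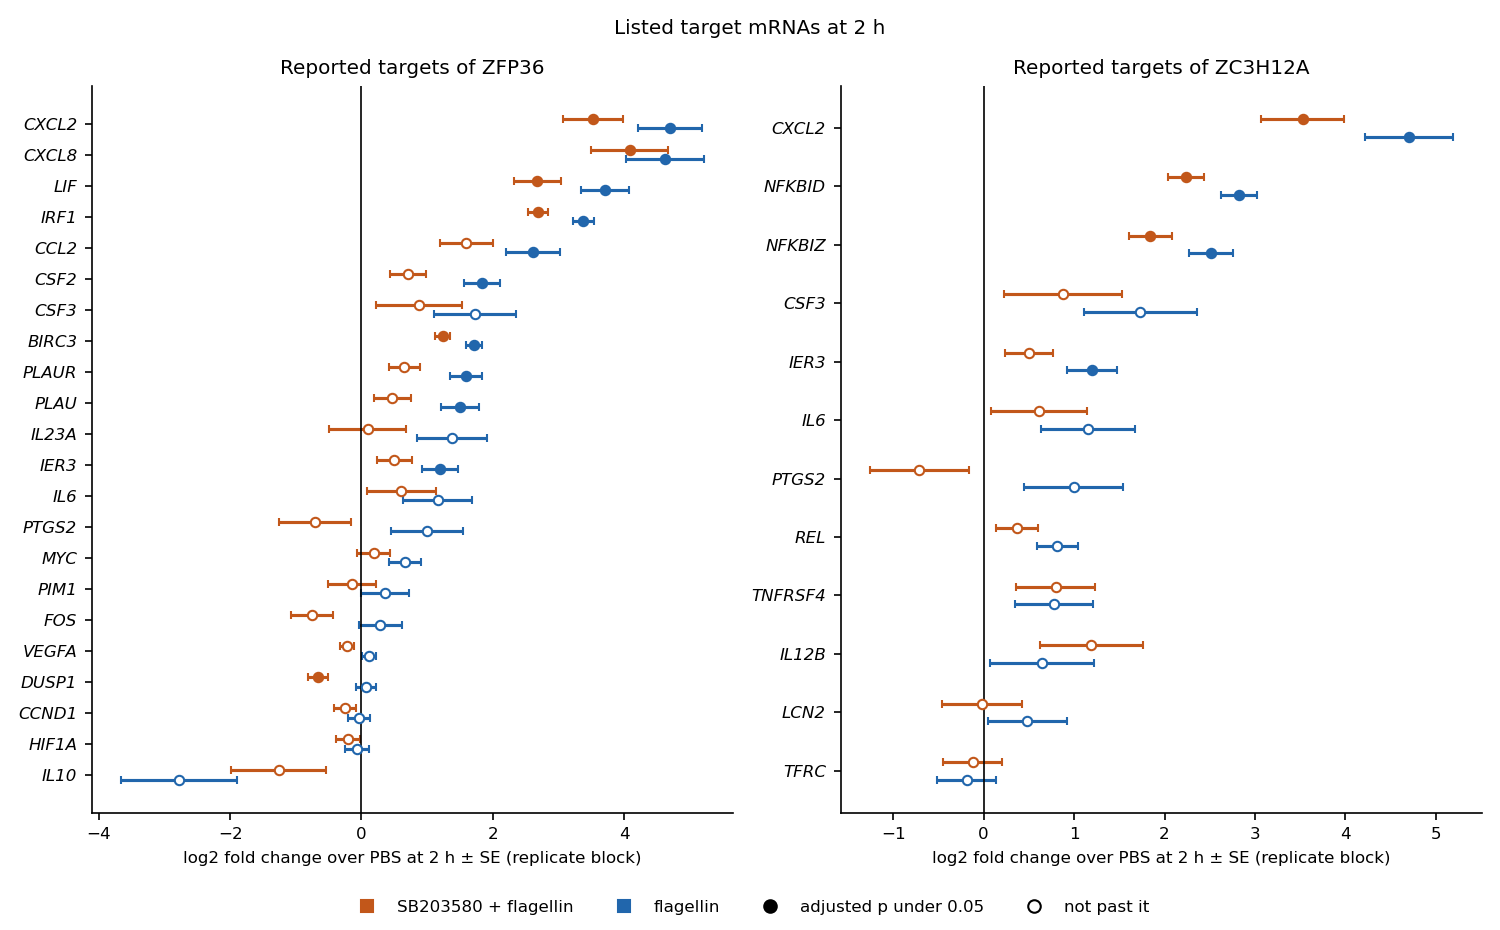
Log2 fold change over PBS at 2 h of the tested ZFP36 and ZC3H12A target messages, for SB203580 plus flagellin and for flagellin, from the fit with the replicate block; filled points have an adjusted p under 0.05. CXCL2 stands at 3.53 with SB203580 plus flagellin and at 4.70 with flagellin, and DUSP1 is the filled point below 0.

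No gene of the decay machinery on which these proteins act was called with flagellin at 2 h by edgeR, where few of all genes were. In the lists of CCR4-NOT and other deadenylases (19 tested), decapping and 5′ decay (23), the RNA exosome and its cofactors (18), and other RNA-binding proteins and RNases of mRNA stability (29), 0 genes were called for flagellin against PBS at 2 h without or with the block by edgeR. Of all genes, 0.325% were called without and 1.07% with the block, so 0 of these 89 genes lies near that share. DESeq2 called 1, among the other RNA-binding proteins. At an unadjusted p under 0.05 without the block there were 0, 1, 1 and 1 in the order of these lists, beside 721 of 14172 genes. The medians lay between -0.04 and -0.02. With SB203580 and flagellin against PBS at 2 h, TOB1, an adaptor of the CCR4-NOT deadenylase, was called as lower (-0.53, SE 0.106, adjusted p = 0.0374), which was the single call in these 4 lists. That is 1.12% of the 89 genes, beside 0.183% of all genes without the block. With the block 1 of the 89 genes was called as well, as lower, beside 0.804% of all genes, so it lies near that share. For the inhibitor against flagellin at 2 h, 0 genes of the 4 lists were called by edgeR without or with the block. Of all genes, 0.00706% were called without and 0.0353% with the block. Without the block 2, 0, 0 and 2 had an unadjusted p under 0.05, beside 321 of 14172 genes. DESeq2 called 1, a deadenylase list gene.

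The module of p38, MK2 and their phosphatases had 20 of 23 genes tested. None was called for flagellin against PBS or for the inhibitor against flagellin at 2 h by edgeR without or with the block. The shares of all genes called were 0.325% and 0.00706% without the block, and 1.07% and 0.0353% with it, in the same order. At an unadjusted p under 0.05 without the block there were 2 genes in each comparison, beside 721 and 321 of 14172 genes. DESeq2 called 0 and 1 gene of the module in these comparisons. With the block, DUSP1 (above) was called for SB203580 plus flagellin against PBS at 2 h, where 0.804% of all genes were. MAP2K6, a kinase that activates p38, was called for the same treatments at 24 h (2.41, SE 0.411, adjusted p = 0.0349), at 5.96, 6.27, 18.1 and 15.8 CPM with SB203580 and flagellin and 0.578, 0.678, 5.32 and 3.77 CPM in PBS. The share of all genes called with the block was 0.0635% there.

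Part of the target messages fell with time in flagellin. Of the ZFP36 targets, 4 were called as lower at 24 h than at 2 h in SB203580 plus flagellin (8 with the block, beside 1 as higher), 10 in flagellin (14 with the block, beside IL10 as higher) and 2 in PBS (5 with the block). Of all genes, 6.88% were called in SB203580 plus flagellin (17.1% with the block), 7.9% in flagellin (18.8%) and 10.2% in PBS (22.5%), so the 2 of 22 in PBS lie near the share of all genes. The medians were -0.44, -1.04 and -0.22 in these treatments. IL10 lay near the floor of 3 counts (0.0827 to 0.114 CPM), at no more than 0.0601 CPM in flagellin at 2 h. At 24 h it was at 0.113, 0.933, 0.0301 and 0.0568 CPM in replicates 1 to 4. Its highest value, in replicate 2, came from a library low in secretory and ciliated markers. LIF (-3.80, adjusted p = 0.0102), CXCL2 (-3.61, adjusted p = 0.0199), CCL2 (-3.19, adjusted p = 0.0338), CXCL8 (-3.10, adjusted p = 0.00944) and IRF1 (-2.51, adjusted p = 6.75e-05) had the largest falls among the called targets in flagellin without the block. Of the ZC3H12A targets 3 were called as lower in flagellin (6 with the block), with 12 of 12 below 0 and a median of -1.53. The target lists were chosen with earlier results known, so these values cannot show whether targets fell more than other genes. The flagellin effect itself was smaller at 24 h for IRF1 (-2.82, adjusted p = 0.00801) and NFKBID (-2.70, adjusted p = 0.00287). In the 4 machinery lists, 7 of the 89 genes were called between 24 h and 2 h in flagellin without the block, a share of 7.87% beside 7.9% of all genes, and 17 with the block (19.1% beside 18.8%). The decapping scavenger DCPS (-0.79, adjusted p = 0.00935), the LSM ring subunit LSM6 (-0.44, adjusted p = 0.0181), the SKI complex subunit SKIC8 (-0.31, adjusted p = 0.0354) and the RNase N4BP1 (-0.72, adjusted p = 0.0318) were lower. GIGYF1, a translational repressor (0.53, adjusted p = 0.00957), the RNA helicase UPF1 (0.44, adjusted p = 0.0213) and KHNYN, a cofactor of antiviral RNA decay (0.69, adjusted p = 0.0486), were higher. DCPS, SKIC8, GIGYF1 and UPF1 were also called with time in PBS, in the same directions. In the p38 module 3 of 20 were called as lower in flagellin at 24 h without the block, namely DUSP1 (-0.65, adjusted p = 0.0123) and the 14-3-3 proteins YWHAH (-0.45, adjusted p = 0.00786) and YWHAZ (-0.34, adjusted p = 0.0197).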

How the data were processed

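The authors deposited 1 table of read counts per gene for 24 libraries, sequenced in pairs; the counts are whole numbers with no normalization. STAR 2.4.0a, Subread 1.4.6-p1 and featureCounts are the tools named per the submitters' processing notes, which also name GRCm38, a mouse build, although the table's identifiers are those of pig genes. The sources used here give neither the pig assembly nor the use of strand. Of 31868 features, 5888 bacterial ones (10217 counts) and 100 spike-ins (0 counts) stayed out of library sizes and tests. A floor of 3 counts equalled 0.0827 to 0.114 CPM, which covers counting error only.

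Counts were scaled by TMM and filtered by filterByExpr, and tested with edgeR 4.0.16 (quasi-likelihood F test, robust, R 4.3.3) on all libraries with a term per group, leaving 18 residual degrees of freedom (15 with the replicate block). P-values are two-sided, with Benjamini-Hochberg adjustment over 14172 genes. The scripts were tested on simulated data. Levels in CPM use TMM-scaled totals, and log2 CPM has a prior count of 2. Same-numbered libraries of different groups deviated together, with a correlation above 0.1 in 36 of 36 pairs (0.211 to 0.797); 21 of these 36 correlate best with their own number. The pairing comes from the numbers in the labels. Same-numbered libraries always belong to the same set, so this check cannot tell pairing by number from the difference between the sets. DESeq2 1.42.0, RLE scaling, no filter, groups compared alone, a set term (replicates 3 and 4 against 1 and 2, within each time), each set alone and leaving out each library were alternatives; leaving out 5 libraries low in secretory and ciliated markers and the difference of effects between sets were added after the data were seen.

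All 8 members are named. A fold change of a member without the block is given only where its size reaches its SE (37 of 88 did). From the lists, called genes are named from the 5 largest changes of a fit, without or with the block, per list and comparison, and not all of these are named. The members and lists were chosen with earlier results of these data known. Of the ZFP36 target list, 3 symbols matched no gene and were not analysed here. Of the genes most like ZFP36 in pattern, 1 is not reported here.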

Additional observations from a re-analysis of the deposited data

Results flagged for a closer look

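In PBS at 2 h, replicate 3 of ZC3H12C stood at 38.3 CPM, apart from the other 3 libraries at 32.0 to 33.0 CPM. It was the 1 sample set apart among 48 groups of 4 libraries, and chance sets apart about 1 in 20 groups. The flagellin effect on ZC3H12A differed between the times by -1.89 (24 h minus 2 h, log2, with the replicate block, adjusted p = 0.00113), and was smaller at 24 h. Bacterial features, which no comparison uses, reached 17.5 CPM at 24 h in replicate 2 of SB203580 plus flagellin and 16.7 CPM in replicate 3 of flagellin, above the 6.09 to 10.1 CPM of PBS at 24 h. Of the other 6 libraries with flagellin at 24 h, 5 lay below the lowest of PBS, at 3.38 to 5.23 CPM, and 1 was at 9.62 CPM. At 2 h they reached 49.5 CPM in flagellin and 51.4 CPM in PBS.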

How the results depend on the processing

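Of the recomputed log2 differences of members, 630 kept their direction and their side of the threshold, 13 lost and 36 gained a call, and 6 changed sign. Without the 5 libraries low in secretory and ciliated markers, ZC3H12A for SB203580 plus flagellin against PBS at 24 h was -0.22. That fit compared replicates 3 and 4 of SB203580 plus flagellin with all 4 PBS libraries. With replicates 1 and 2 only, the change with time was 0.16 for ZFP36L1 and 0.023 for ELAVL1 in PBS, 0.039 for ELAVL1 in flagellin, and 0.23 for ZC3H12C and 0.054 for ELAVL1 in SB203580 plus flagellin. The cause was not tested. RLE scaling, no count filter and the groups compared alone changed no call. The number of the 8 members called for flagellin against PBS at 2 h was 1. It was 2 by DESeq2, 2 with the replicate block, 3 with the set term, 3 in replicates 3 and 4 only, 0 in replicates 1 and 2 only, and 0 without the 5 libraries; leaving out single libraries gave 0 to 1. For SB203580 plus flagellin against flagellin at 2 h it was 0, but 1 with the block, 2 with the set term and 2 in replicates 3 and 4 only. For SB203580 plus flagellin against PBS at 2 h it was 0, but 1 by DESeq2, 1 with the block, 2 with the set term and 2 in replicates 3 and 4 only. For 24 h against 2 h it was 0 in PBS (2 with the set term, 3 in replicates 3 and 4 only), 2 in flagellin (3 with the block, with the set term or without the 5 libraries, 4 in replicates 3 and 4 only, and 1 to 2 without single libraries), and 0 in SB203580 plus flagellin (1 with the block, 2 with the set term, 4 in replicates 3 and 4 only, and 0 to 1 without single libraries). For the interaction of flagellin with time it was 0, but 1 with the block, 1 with the set term and 1 in replicates 3 and 4 only. The block changed no call of a member beyond these. Over all 14172 genes, the set term called 2240 as higher and 2460 as lower at 24 h than at 2 h in PBS. It called 2051 and 2044 in flagellin, and 1923 and 1915 in SB203580 plus flagellin. Replicates 3 and 4 only gave 1877 and 1601, 1923 and 1937, and 1685 and 1755 in this order, of 13939 genes. The 2 of 8 members called with the set term in PBS and in SB203580 plus flagellin are not above these shares. At 2 h the set term called 182 genes as higher and 136 as lower for flagellin against PBS. It called 16 and 37 for the inhibitor against flagellin, and 142 and 139 for SB203580 plus flagellin against PBS. Replicates 3 and 4 only gave 187 and 11, 32 and 61, and 137 and 46 in this order. Depth did not limit the members, whose lowest count was 597. With 4 libraries a group, in sets that differ, a missing call does not show equal levels.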
